A study of Mus musculus with 10 samples.

Results

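The genes described here were higher in primary mouse aortic smooth muscle cells loaded with cholesterol than in baseline cells, and lay lower again in loaded cells that were afterwards kept with high-density lipoprotein (HDL). There were 59 of them among the 16860 genes measured (0.35%). They were chosen by their values on the arrays: the cholesterol mean lay at least 1 above the baseline mean on the log2 scale, and the HDL mean had returned at least 50% of that distance towards baseline. In addition, both cholesterol arrays had to lie above both baseline arrays and above both HDL arrays. A further 2 genes were left out by name in the rule that defines the set, and 1 of these met its conditions. Because the array values chose the members, their differences are given as a description, and no test given below supports them.

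Expression was measured on Affymetrix arrays, 2 for each of 3 groups, in cultured smooth muscle cells that derived from the thoracic aorta of C57BL/6 mice, which were 8 weeks old. Cells of the HDL group took up cholesterol for 72 h from a complex with methyl-β-cyclodextrin, the carrier, given at 10 µg/mL with 6 parts of carrier to 1 of cholesterol in moles. They then spent a second 72 h with human HDL at 100 µg/mL. The cholesterol group had the same loading and was harvested at its end, and the baseline group had no stimulus by its labels. All groups grew in medium with 10% fetal bovine serum for at most 5 passages. No carrier-only group, no untreated group of the same age in culture and no loaded group harvested at 144 h without HDL was analysed here, so carrier, time in culture and treatment cannot be told apart. The labels do not say whether the arrays of a group came from separate cultures or mice.

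As background, a cell cannot break down the sterol ring and sheds surplus cholesterol by handing it to acceptors outside the cell. HDL is the main such acceptor in plasma, and the ATP-binding cassette transporters A1 and G1 pass cholesterol to apolipoprotein A-I and to HDL. Surplus sterol also acts on transcription, through the liver X receptors, which oxysterols activate, and through SREBP2, whose processing it blocks. Smooth muscle cells of the aorta that take up cholesterol are known to lose contractile proteins and to gain features of macrophages, and the study asked how that switch comes about. The deposited table gives genes by Ensembl identifier, and the reference table used here matched 0 of the 16860 identifiers. The members' names and roles, their promoter sequences and the cell type markers that would check the labelled cell type were therefore not analysed here, and 4 members are given by identifier.

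The largest difference between cholesterol and baseline among the members was that of ENSMUSG00000030162_at. Its log2 values were 5.21 and 6.52 on the HDL arrays, against 8.94 and 7.70 on the cholesterol arrays and 4.52 and 4.62 on the baseline arrays. The groups did not overlap, but the arrays within the HDL group and within the cholesterol group lay more than 1 apart. Its mean was 5.86 ± 0.92 after HDL, 8.32 ± 0.88 with cholesterol and 4.57 ± 0.07 at baseline (SD, n = 2 each). The cholesterol level was thus 13.5-fold the baseline level and 5.50-fold the HDL level, and 65.5% of the log2 difference had been undone. Without HDL replicate 1 that share was 48.1%, and the gene would not have been chosen.

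ENSMUSG00000006014_at had the second largest difference. Its log2 values were 6.56 and 5.92 on the HDL arrays, against 9.01 and 7.29 on the cholesterol arrays and 4.70 and 4.44 on the baseline arrays. The cholesterol arrays of this gene lay 1.72 apart, the widest replicate gap of any member in that group. The cholesterol mean lay 3.58 above baseline and the HDL mean 1.67 above it, so that 53.3% was undone. The share was 38.5% without cholesterol replicate 1 and 44.3% without HDL replicate 2.

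Only 2 members had an HDL mean below their baseline mean, and they had the highest shares undone. ENSMUSG00000025321_at had log2 values of 8.31 and 8.54 on the HDL arrays, against 9.74 and 9.90 on the cholesterol arrays and 8.62 and 8.60 on the baseline arrays. Both HDL arrays lay below both baseline arrays, by a mean of 0.19, which it shared with no other member. The share undone was 116%, and between 106% and 125% when any 1 array was left out. ENSMUSG00000019989_at had log2 values of 5.49 and 5.19 on the HDL arrays, against 6.79 and 6.35 on the cholesterol arrays and 5.37 and 5.61 on the baseline arrays. All its values lay below the median gene of their array. Its HDL and baseline arrays overlapped, and its share undone was 114%, and between 100% and 128% when any 1 array was left out. Its difference between cholesterol and baseline was 0.86 without cholesterol replicate 1 and 0.97 without baseline replicate 1, under the minimum of 1 in both cases.

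**Figure D1:**
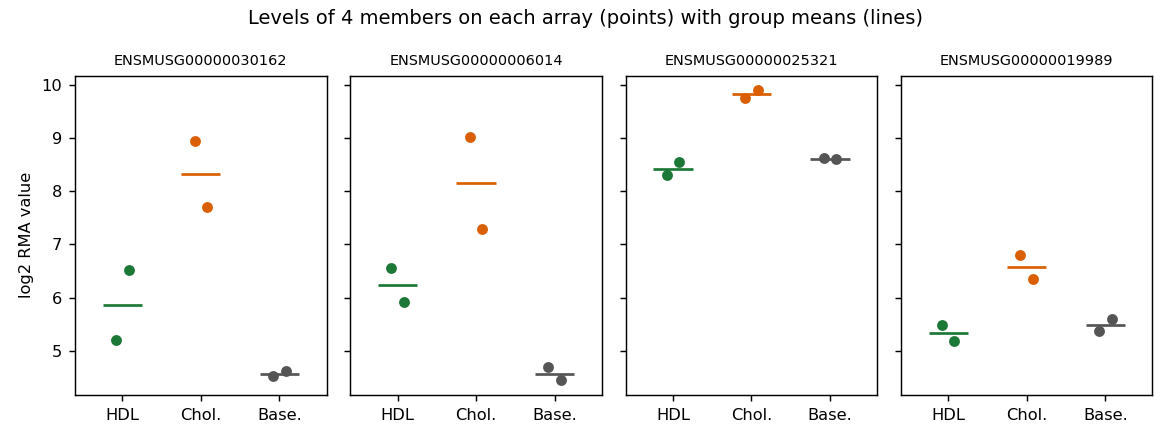
Log2 values of 4 members on each of 2 arrays per group (points), with the group mean as a line; each panel is 1 gene, with HDL, cholesterol and baseline from left to right. In every panel both cholesterol points lie above all other points, while the HDL points lie above baseline in the first 2 panels and near or below it in the last 2.

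Most members had modest differences. Cholesterol minus baseline had a median of 1.33 on the log2 scale, with quartiles of 1.13 and 1.76 and a highest value of 3.75. It was under 1.5 in 38 members, at least 2 in 8 and at least 3 in 3. HDL minus cholesterol ran from -2.46 to -0.53, with a median of -0.85. The 4 members with the largest differences between cholesterol and baseline also had the 4 largest between HDL and cholesterol, while the member ranked 10 by the first was ranked 21 by the second. The rule ties the 2 differences, since it asks for a return of at least 50%.

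The members covered much of the range of levels on an array. Their mean levels after HDL lay between 3.99 and 12.11, with a median of 6.93, those with cholesterol between 4.57 and 12.93, with a median of 8.15, and those at baseline between 3.46 and 11.59, with a median of 6.39. Expressed as a rank on the array, the median member stood at the 49.6th percentile of genes after HDL, the 65.0th with cholesterol and the 43.8th at baseline. In 31 members (52.5%) both baseline arrays were below the median gene of their array, against 49.3% of all genes. Of these, 12 (20.3% of the members) had both cholesterol arrays above the median gene, against 1.75% of all genes and 31.0% of the other genes at least 1 higher with cholesterol. On both HDL arrays 10 of the 12 were again below the median gene, 16.9% of the members. The same pattern over the 3 groups held in 0.267% of all genes and 1.11% of the other genes at least 1 higher with cholesterol. The rule favours such a return, since it asks for HDL values below the cholesterol values.

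**Figure D2:**
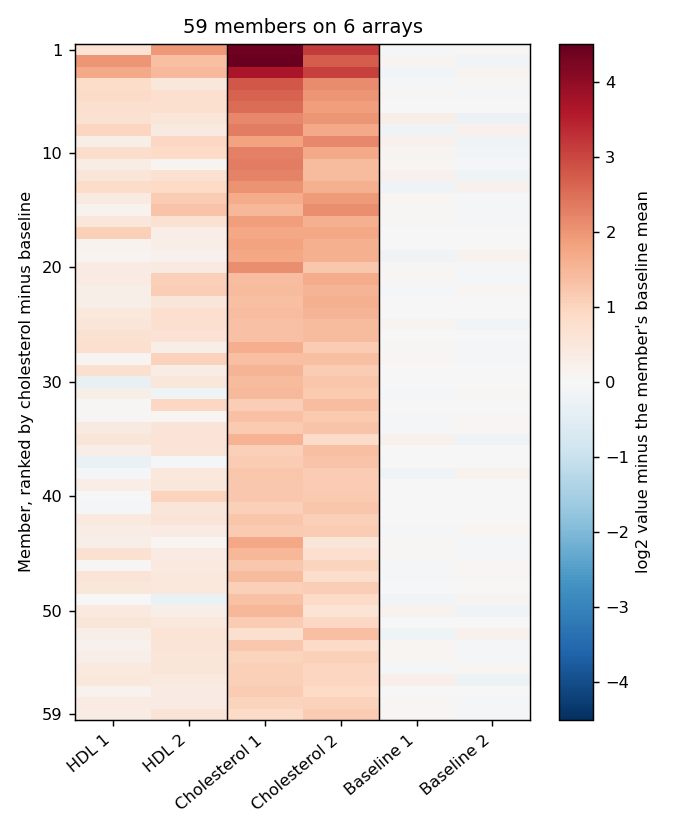
Log2 value minus the member's baseline mean (colour) for 59 members, ranked downwards by cholesterol minus baseline, on 6 arrays in columns. The cholesterol columns are the darkest throughout, the HDL columns are paler than the cholesterol columns in every row, and the first 3 rows stay visibly above baseline after HDL.

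Array by array, the median member lay 0.37 and 0.55 above its baseline mean on HDL arrays 1 and 2, against 1.41 and 1.29 on cholesterol arrays 1 and 2. Over the members the share undone had a median of 62.6% and quartiles of 56.4% and 73.0%. This share was between 50% and 60% in 25 members, at least 75% in 14 and at least 90% in 6. The rule set the lower end of this range. Just inside that limit lay shares of 0.508, 0.516 and 0.517, and just outside it 1 gene just under 0.5 and shares of 0.493 and 0.479. For the minimum difference of 1, the nearest members had 1.00, 1.01 and 1.02 and the nearest genes outside 0.99, 0.99 and 0.98. The condition that HDL and cholesterol arrays be apart kept out 2 genes that met all others, whose arrays overlapped by 0.03 and 0.25, while the closest members had gaps of 0.06, 0.09 and 0.17.

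Altogether 508 genes were at least 1 higher with cholesterol than at baseline with their arrays apart, and the members were 11.6% of these. In the other 449 the HDL mean lay 1.53 above baseline in the median and the share undone had a median of 5.4%, and in 189 of them the HDL mean was above the cholesterol mean. The rule separates both sets on these values, so the contrast is one of definition. Cholesterol minus baseline was at least 3 in 3 members and in 60 of the others, with the highest value at 9.70 among the others. The members' median baseline level was 6.39, against 7.11 in the others; this difference was not tested, since the baseline arrays took part in the choice.

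**Figure D3:**
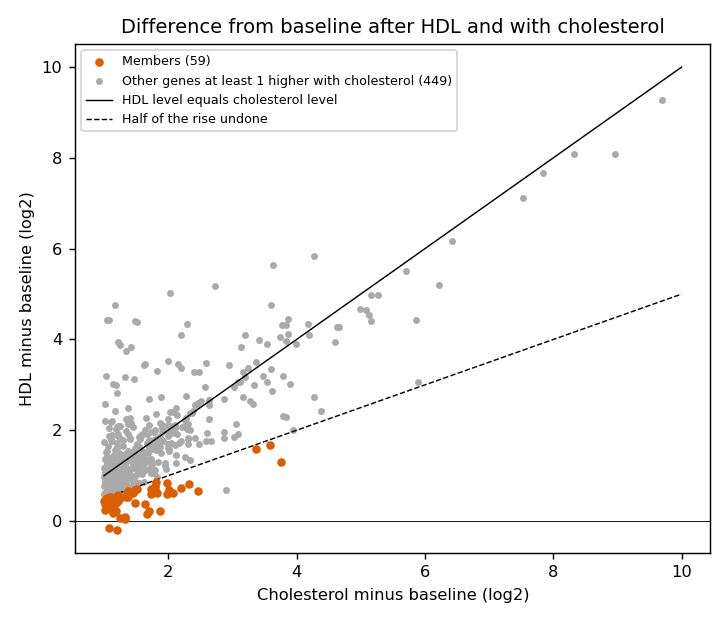
HDL minus baseline (vertical, log2) against cholesterol minus baseline (horizontal, log2) for 508 genes, with 59 members in orange and 449 others in grey. The members lie under the dashed line, where 50% of the difference is undone; the grey points under that line are 2 genes with overlapping arrays and 1 that the rule leaves out by name, and most grey points lie around the solid line of no return.

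What remained after HDL was of 1 sign in most members. HDL minus baseline had a median of 0.50 and quartiles of 0.36 and 0.65, and it ran from -0.19 to 1.67. It was within 0.2 of 0 in 7 members (11.9%), against 57.3% of all genes, and at least 0.5 in 29 (49.2%), against 7.86%. It was at least 1 in 3 members (5.08%), against 3.47% of all genes. These were also the 3 with the largest differences between cholesterol and baseline. Both HDL arrays lay above both baseline arrays in 49 members (83.1%), against 25.8% of all genes. That share was 99.8% in the other 449 genes higher with cholesterol. The arrays overlapped in 9 members, against 40.9% of all genes, and both HDL arrays lay below in 1, against 33.3% of all genes. Since the rule asks for low baseline values relative to cholesterol and caps the remainder at 50% of the difference, these counts describe the members and test nothing.

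**Figure D4:**
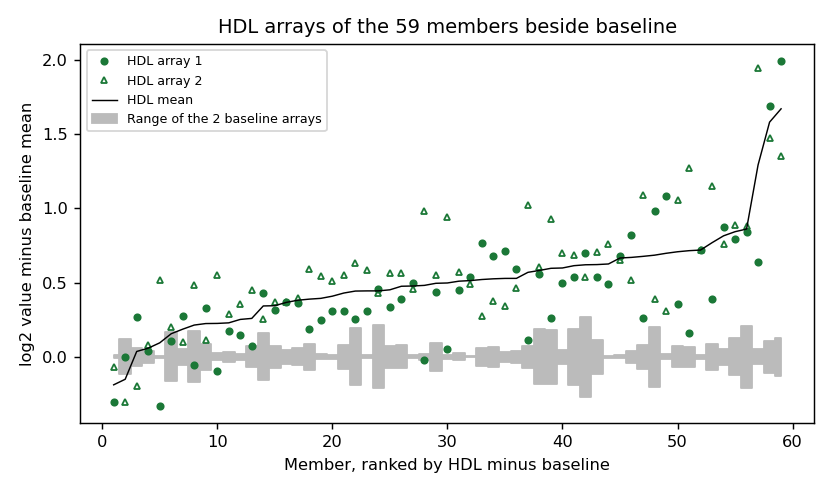
Log2 value minus the baseline mean on HDL array 1 (filled circles) and HDL array 2 (open triangles) for 59 members, ranked by HDL minus baseline; the line is the HDL mean and the grey band the range of the 2 baseline arrays. The mean passes from -0.19 to 1.67, only the first 2 members have a mean below 0, and in several members the 2 HDL arrays lie far apart.

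Tests run over all genes are given here for the members beside their background. Cholesterol was compared with baseline by limma on the arrays that the authors normalized without the HDL group, and HDL with cholesterol and with baseline in a fit of all 6 arrays. At a Benjamini-Hochberg adjusted p under 0.05, all 59 members were called higher with cholesterol than at baseline, against 13.1% of all genes. Of the 59, 32 were called lower after HDL than with cholesterol, against 0.949% of all genes. The rule used both contrasts, so nothing is read from these counts. For HDL over baseline 19 members were called higher and 0 lower. Over all genes 3370 were called in either direction, of which 1540 were higher (9.13% of all genes). Higher with an unadjusted p under 0.05 were 37 members, against 14.1% of all genes. That comparison uses the same HDL and baseline arrays as the rule.

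The call counts for HDL changed when single arrays were left out, but each such fit also had fewer residual degrees of freedom. Baseline arrays enter the comparison of HDL with cholesterol only through the estimate of the spread. The count of members called lower after HDL than with cholesterol was 29 without HDL replicate 1, against 0.7% of all genes, and 48 without HDL replicate 2, against 4.22%. It was 8 without cholesterol replicate 1, against 0.107% of all genes, 16 without cholesterol replicate 2, against 0.243%, and 11 without either baseline array, against 0.202%. The count called higher after HDL than at baseline was 29 without HDL replicate 1, against 7.95% of all genes, and 19 without HDL replicate 2, against 11.4%. With baseline replicate 1 left out it was 5, against 4.61% of all genes, and with baseline replicate 2 left out it was 3, against 4.31%, so that the members' share was then near that of all genes.

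Replicate arrays lay apart in a sizeable part of the members. The cholesterol arrays differed by at least 0.5 in 18 of 59 members, against 1.64% of all genes and 42 of the 449 other genes higher with cholesterol. In 16 of these 18 cholesterol array 1 was the higher one, a pattern seen in 0.872% of all genes, and it was the higher one in 36 of the 42 other genes too. The HDL arrays differed by at least 0.5 in 15 members (25.4%), against 6.36% of all genes and 26.3% of the other 449. HDL array 2 was the higher one in 12 of the 15, a pattern seen in 2.7% of all genes, and in 33 of the 118 such gaps among the other 449. At baseline 1 member had such a gap, against 1.25% of all genes. Both differences in the rule contain the cholesterol arrays, so a high value there counts towards both.

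The replicate gaps of the HDL and cholesterol groups had the same sign in 35 of 59 members (59.3%), against 60.1% of the other 449 genes and 51.1% of all genes. Cholesterol array 1 minus array 2 correlated with HDL array 1 minus array 2 by 0.46 over the 59 members, by 0.48 over the other 449 genes higher with cholesterol and by 0.13 over all genes. Genes are not independent replicates, and the points share the same 4 arrays. Without the member with the largest difference, ENSMUSG00000030162_at, which had cholesterol array 1 and HDL array 2 on the high side, the value was 0.63. The gaps of the cholesterol and baseline arrays correlated by 0.14 over the members. Among the 12 members with HDL array 2 higher by at least 0.5, cholesterol array 2 was the higher cholesterol array in 7.

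**Figure D5:**
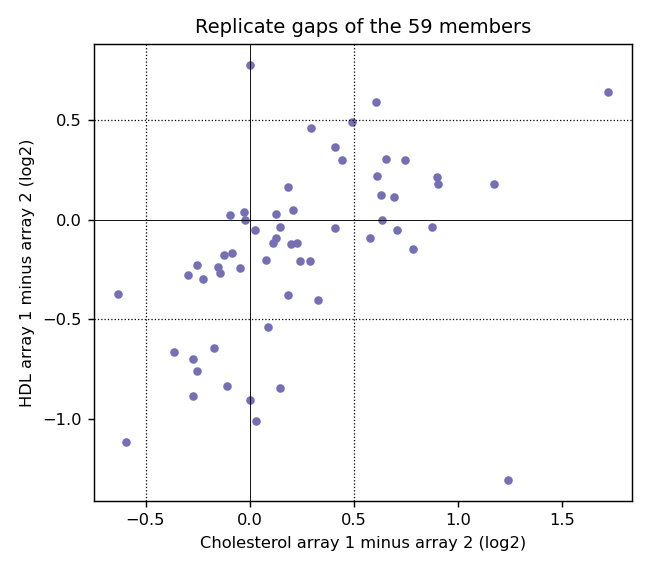
HDL array 1 minus array 2 (vertical, log2) against cholesterol array 1 minus array 2 (horizontal, log2) for 59 members; dotted lines mark 0.5 in each direction. Points below the lower dotted line are the 12 members with HDL array 2 higher, points right of the right dotted line are the 16 with cholesterol array 1 higher, and the single point in the lower right corner is ENSMUSG00000030162_at.

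Membership was then read with each array left out in turn. Of the 59 members, 27 met the rule without any 1 of the 6 arrays, 14 failed it without exactly 1 array, and 18 failed it without 2 or more. The number of members that met it was 44 without HDL replicate 1, 51 without HDL replicate 2, 45 without cholesterol replicate 1, 54 without cholesterol replicate 2, and 53 and 48 when baseline replicates 1 and 2 were left out. The median share undone was 70.2% in the 27 and 57.2% in the other 32, a difference that the filter itself favours, since members near the 50% limit are the first to fail. ENSMUSG00000025321_at was among the 27, and the other 3 members given by identifier were not.

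Genes were also chosen on 1 array per group and read on the arrays not used. All arrays were normalized together and those of a group may be technical repeats, so this reading describes the arrays and is no independent test. The replicate 1 arrays alone chose 89 genes, 52 of them members. On the replicate 2 arrays 27 of the 89 met the rule (30.3%), against 0.291% of all genes. The HDL array lay below the cholesterol array there in 83 of 89, against 49.9% of all genes and 55.9% of the other 456 genes at least 1 higher with cholesterol on the replicate 1 arrays. Their median share undone was 46.5% on the arrays not used, against 71.9% on the arrays that chose them, and HDL minus cholesterol had medians of -0.54 and -1.12. The replicate 2 arrays alone chose 49 genes, 31 of them members. On the replicate 1 arrays 27 of the 49 met the rule (55.1%), against 0.528% of all genes. These are the same 27 genes as above, the overlap of the 2 choices, so the 2 counts are 1 result. The shares over all genes beside them, 0.291% and 0.528%, are those of the 49 and the 89 chosen genes. The HDL array lay below the cholesterol array in 48 of 49, against 47.4% of all genes and 59.0% of the other 451 genes at least 1 higher with cholesterol on the replicate 2 arrays. The median share undone was 68.2% on the arrays not used, against 62.2% on those that chose them. This reading was added after the data had been seen.

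The difference between cholesterol and baseline could also be read in the authors' other normalization, which holds the same arrays without the HDL group. There 56 of the 59 members were at least 1 higher with cholesterol with their arrays apart, against 3.02% of all genes. The difference moved by between -0.25 and 0.19 from one normalization to the other, with a median shift of 0.01. The 2 versions share their arrays, so the second adds no replicate.

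The one gene annotation that could be joined by identifier was a set of cell cycle marker genes supplied with the scran package. Of its lists for the G1, S and G2M phases, 125, 95 and 91 genes were measured, and 2, 0 and 0 of these were members. Members were 0.35% of all genes, so lists of this size can hold few or none, and nothing is read from these counts.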

How the data were processed

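The data come from 6 Affymetrix Mouse Genome 430 2.0 arrays, hybridised with RNA of mouse aortic smooth muscle cells in 3 groups. Probe intensities were turned into 1 value per gene by the authors with Robust Multichip Average (RMA), per the labels and the design text, on a custom probe mapping to Ensembl release 59. The deposited log2 values are in 10 columns for 6 arrays, since the authors normalized the baseline and cholesterol arrays both alone (analysis I) and together with the HDL arrays (analysis II). RMA brings arrays to 1 distribution and compresses differences of dim genes; the RMA version is not given in the sources used here. The number of arrays limits the precision, and with no statement that arrays came from separate cultures, p-values reflect the spread of these arrays alone, and that spread may be technical.

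Members were found in analysis II with pandas 2.3.3. The members, and the gene lists and tests, were chosen with earlier results of these data known. limma 3.58.1 in R 4.3.3 (functions lmFit and eBayes, a two-sided test with no term but the group) was run on all 16860 genes with Benjamini-Hochberg adjustment, in analysis I for cholesterol against baseline and in analysis II for the HDL comparisons; the fit was tested on simulated data. Identifiers have no symbols here, so the 25 gene lists by symbol were not used. The naming rule was reduced to the 2 members with the largest difference, and the 2 with the highest share undone were added after their values were seen. Cell cycle lists from scran 1.30.0 hold genes that are the higher member of at least 10 marker pairs and of at least 90% of their pairs. Alternatives were other limits of the rule, left-out arrays, a replicate block, a filter on dim genes and the methods' one-way test per gene.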

Additional observations from a re-analysis of the deposited data

How the results depend on the processing

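The number of members was 21 with a minimum difference of 1.5, 34 with a minimum share of 0.6 and 89 when chosen on the replicate 1 arrays alone. Under the other limits, without dim genes, with analysis I and on the replicate 2 arrays alone it lay between 45 and 87, and without each array in turn between 54 and 75. The median share undone of genes chosen without each array in turn was 62.0% to 70.4%. Members called higher with cholesterol than at baseline numbered 59, against 13.1% of all genes, but 1 with the one-way test per gene (0.119% of all genes). At an unadjusted p under 0.05 that one-way test gave 50 members, against 12.3% of all genes. Members called lower after HDL than with cholesterol numbered 32, but 0 with the one-way test (27 at an unadjusted p under 0.05, against 3.95% of all genes), 11 with only the cholesterol and HDL arrays (0.202% of all genes), and 8 to 48 without each array. Members called higher after HDL than at baseline numbered 19, but 0 with the one-way test (17 at an unadjusted p under 0.05, against 8.93% of all genes), and 3 to 29 without each array. The one-way test used only the arrays of the groups compared. It takes each gene's own spread without the moderation over genes that limma adds. For the HDL comparisons it thus dropped both the moderation and the arrays of the remaining group. The smaller fits have fewer residual degrees of freedom, and where 1 array was left in a group, its spread was taken from the other groups. Replicate numbers are shared by the groups but nothing in the labels pairs them, and gaps between replicates correlated across all genes by 0.133 between HDL and cholesterol, 0.00525 between HDL and baseline and 0.016 between cholesterol and baseline. With a replicate block 59, 35 and 27 members were called in the 3 comparisons, against 12.5%, 0.819% and 9.12% of all genes.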

Other observations

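The mirrored rule, for genes at least 1 lower with cholesterol than at baseline whose HDL mean had returned at least 50% of the distance, was met by 78 of 455 genes with arrays apart (17.1%), beside the 59 of 508 genes (11.6%) described above. These counts were not tested against each other.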
